A study of Mus musculus with 3 samples.

Results

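Lung cells that carried transcripts of nonclassical and of classical monocytes at the same time made up 2966 of the 31681 cells kept from 3 single-cell RNA sequencing libraries of mouse lung. They were chosen by a rule on their own counts. A cell needed at least 1 unique molecular identifier (UMI, a tag that marks 1 captured transcript) of at least 2 of the 5 genes Ace, Adgre4, Cd300e, Spn and Treml4, and at least 2 summed UMIs of Ly6c2, Ccr2 and Vcan. It could hold at most 2 summed UMIs of the alveolar macrophage genes Krt79, Plet1 and Slc39a2, and had to show fewer than 3 of 7 cell cycle genes. The cells are called intermediate monocytes here, a working name whose fit to the markers is given in the values that follow.

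The study profiled wild type C57BL/6 mice, a standard inbred strain. All 3 groups received 50 µL into the trachea, and lungs were taken after 24 h. The PBS group received saline alone, the LPS group received bacterial lipopolysaccharide at 4 mg/kg as a model of acute lung injury, and the LPS + Reg3g group received the same LPS dose and, with it, Reg3g protein (6 µg), a C-type lectin that epithelia secrete. Live CD45+ Ly6G- F4/80+ CD11b/CD11c+ cells were sorted, so neutrophils were meant to be gated out and every cell had passed a macrophage gate. Each group is 1 library made from a pool of 3 mice. No test between groups was therefore possible, no difference has a replicate check, and the intervals given here (95% exact) cover counting error only.

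Classical monocytes leave the bone marrow with high Ly6c2 and Ccr2, the receptor for the chemokine Ccl2, and enter inflamed tissue. Nonclassical monocytes patrol the inner wall of blood vessels, depend on the nuclear receptor Nr4a1, and carry Ace, Treml4 and Ceacam1. In blood some classical monocytes convert to nonclassical ones, and cells with features of both are described as intermediates.

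Between 8475 and 15015 barcodes per library and 52354207 to 70474636 UMIs were deposited. The filter on genes, UMIs and mitochondrial share kept 8132 PBS, 13880 LPS and 9669 LPS + Reg3g cells, whose median depths were 6052, 4381 and 5619 UMIs. Any pair of libraries shared 24 to 33 kept barcodes, and PBS and LPS shared 2 barcodes of intermediate monocytes.

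For comparison, a nonclassical gate held cells that met the nonclassical criterion with at most 1 classical UMI, and a classical gate held cells with 2 or more classical UMIs, Ly6c2 among them, and at most 1 of the 5 nonclassical genes. Both gates left out cells with 2 or more summed UMIs of 17 genes of other lineages, whereas the intermediate monocytes did not. Because the gates were cut on the same genes, levels of those genes are descriptions of the selection. Among the genes of the rule in intermediate monocytes, Ace, which encodes angiotensin-converting enzyme, stood at 293 CPM (a gene's share of the UMIs summed over the cells, scaled to a total of 1000000) with PBS, 167 with LPS and 181 with LPS + Reg3g. Treml4 was at 170, 302 and 307 CPM, Ly6c2 at 750, 1125 and 724 CPM, and Ccr2 at 568, 146 and 174 CPM. Ly6c2 has a close copy, Ly6c1, and how reads common to both were assigned was not given in the sources used here.

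Ceacam1, an adhesion receptor of nonclassical monocytes that the rule did not use, was the remaining marker of the label. Its level in intermediate monocytes was 136 CPM with PBS, 137 with LPS and 171 with LPS + Reg3g. The nonclassical gate held 233, 161 and 266 CPM, and the classical gate 55.1, 51.6 and 52.9 CPM, so the intermediate monocytes lay between the gates in each library. Cells were then thinned at random to 2000 UMIs, and shallower cells were left out. A Ceacam1 UMI remained in 19.7%, 24.5% and 27.4% of intermediate monocytes in PBS, LPS and LPS + Reg3g, against 43.7%, 41.6% and 51.5% before thinning. The same thinned share in alveolar macrophages, which should lack the gene, was 1.05%, 1.36% and 2.12%. Median depths before thinning were 5146, 4256 and 5191 UMIs in intermediate monocytes and 7834, 6575 and 8056 UMIs in alveolar macrophages.

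Markers of other cell types were present at uneven levels. The alveolar macrophage list of 8 genes, 3 of them limited by the rule, summed to 42.2 CPM with PBS, 174 with LPS and 153 with LPS + Reg3g. The sums after LPS were led by Marco, at 0.982, 86.8 and 76.1 CPM, and Car4, at 3.60, 47.7 and 42.7 CPM. Siglecf was at 0.655 CPM or less. Type 1 dendritic markers (4 of 4 detected in each library) summed to 740, 212 and 226 CPM, most of it Irf8, and migratory dendritic markers to 196, 101 and 32.4 CPM. The neutrophil list summed to 132, 897 and 1218 CPM, led after LPS by S100a8 at 464 and 726 CPM and S100a9 at 359 and 415 CPM. Retnlg stood at 0.982, 19.4 and 19.1 CPM, above both gates in both LPS libraries. Csf3r stood at 91.3, 53.1 and 55.6 CPM, and the neutrophil receptor Cxcr2 stayed between 0.327 and 2.38 CPM. The T cell, NK cell, B cell and platelet lists summed to between 0.318 and 25.2 CPM, and the platelet gene Gp1bb was at 0 in all 3 libraries. Of the intermediate monocytes, 76 with PBS (15.4%), 70 with LPS (5.12%) and 33 with LPS + Reg3g (2.98%) held 2 or more UMIs of other lineages. Values without these cells stand beside the results on shares, gene positions and the gene groups where they moved a value most.

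The rule was also met outside monocytes. Both of its positive criteria held in 1.69% of alveolar macrophages with PBS, 3.52% with LPS and 3.44% with LPS + Reg3g, and in 10.3%, 3.68% and 8.11% of cells with type 1 dendritic markers. Intermediate monocytes held more UMIs than both monocyte gates, whose medians were 2231, 2339 and 3052 for the nonclassical and 3872, 3497 and 4600 for the classical gate. Their median Scrublet score, a measure of likeness to simulated doublets (droplets with more than 1 cell), was 0.0480, 0.0558 and 0.0524, above the 0.0163, 0.0372 and 0.0370 of the nonclassical and the 0.0256, 0.0485 and 0.0400 of the classical gate. The highest-scoring barcodes, those an expected doublet rate would remove, held 0.813%, 2.78% and 0.813% of intermediate monocytes against 3.33%, 6.25% and 4.03% of all kept cells, 0.796%, 1.19% and 0.777% of the nonclassical and 0.543%, 1.88% and 0.296% of the classical gate. At the doubled rate they held 8.74%, 11.4% and 4.34% of intermediate monocytes, against 1.27%, 4.52% and 2.33% of the nonclassical and 0.978%, 7.38% and 2.27% of the classical gate. No doublets were removed from the values given. Without the highest scores intermediate monocytes were 6.21%, 10.2% and 11.8% of the kept cells in the 3 libraries, and at the doubled rate 5.92%, 9.97% and 11.9%.

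The share of intermediate monocytes among kept cells was lowest with PBS. In the PBS library 492 of 8132 cells were of this kind (6.05%, 5.54% to 6.59%). In the LPS library it was 1367 of 13880 (9.85%, 9.36% to 10.4%), and in the LPS + Reg3g library 1107 of 9669 (11.4%, 10.8% to 12.1%). The nonclassical gate held 7.72%, 6.05% and 12.0% of kept cells and the classical gate 11.3%, 17.3% and 10.5%. Set against the 3 monocyte groups together, intermediate monocytes were 24.1%, 29.7% and 33.8%. Since the sort fixes which cells were loaded, these are shares of sorted cells, not numbers per lung.

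The order of the LPS and LPS + Reg3g libraries did not hold at equal depth. Cells were thinned to 2000 UMIs before the rule was applied, and shallower cells were left out, so 7421 PBS, 11885 LPS and 8776 LPS + Reg3g cells remained. PBS had 2.08% (1.76% to 2.43%), LPS 4.17% (3.82% to 4.55%) and LPS + Reg3g 3.54% (3.17% to 3.95%). PBS remained lowest, and LPS + Reg3g moved from above LPS to below it, with overlapping intervals. Without the cells of other lineages the shares were 5.12%, 9.34% and 11.1%, and with at least 3 nonclassical genes and 3 classical UMIs required they were 2.72%, 3.58% and 4.64%.

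**Figure D1:**
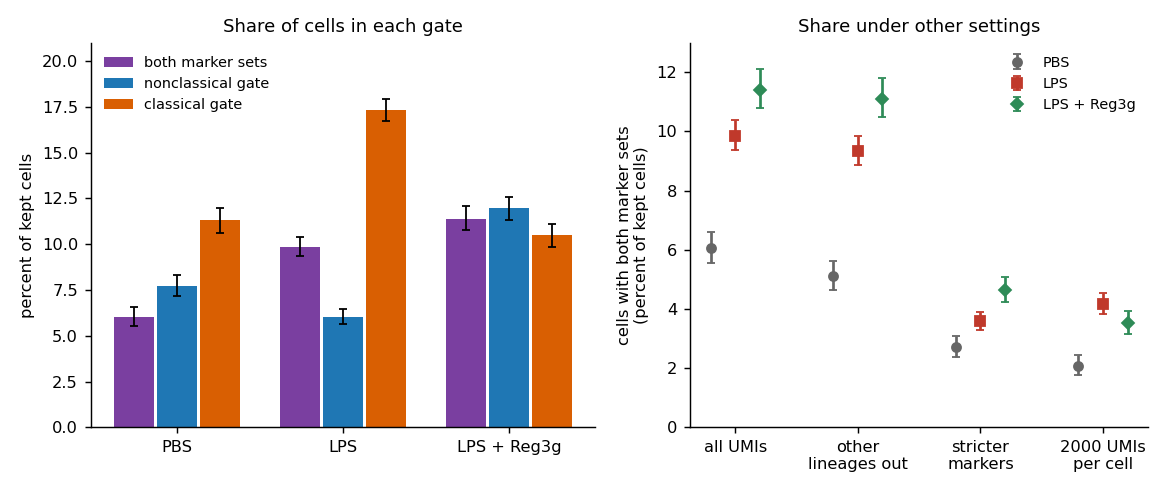
Left, bars give the percent of kept cells in the intermediate monocytes (both marker sets), the nonclassical gate and the classical gate for each library. Right, points give the percent of intermediate monocytes under 4 settings; error bars in both panels are 95% exact binomial intervals over cells. PBS is lowest under each of the 4 settings. At 2000 UMIs per cell the LPS + Reg3g point (3.54%) lies under the LPS point (4.17%), with overlapping intervals.

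Cells at the edge of the rule were common. Exactly 2 nonclassical genes were detected in 45.7% of intermediate monocytes with PBS, 55.2% with LPS and 45.2% with LPS + Reg3g, and all 5 in 10.4%, 2.78% and 5.06%. No Ly6c2 UMI was found in 20.5%, 2.78% and 9.94%, which had met the classical criterion through Ccr2 or Vcan. Just inside the threshold, the 225 PBS cells with exactly 2 nonclassical genes held 86.0 CPM of Ceacam1, and just outside it the 578 cells with exactly 1 held 31.1 CPM. On the other side, the 66 PBS cells with exactly 2 classical UMIs held 50.5 CPM of F13a1, the coagulation factor XIII A chain made by classical monocytes, and the 129 with exactly 1 held 46.5 CPM. The F13a1 levels inside and outside were 41.6 and 35.3 CPM with LPS, and 66.9 and 34.5 CPM with LPS + Reg3g, where they lay furthest apart. For Ceacam1 they were 108 and 62.0 CPM and 112 and 63.3 CPM, higher inside in each library.

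The number of nonclassical genes of the rule moved with other genes across the intermediate monocytes. From cells with 2 to cells with all 5 of these genes, Ceacam1 went from 86.0 to 219 CPM in the PBS, 108 to 204 CPM in the LPS and 112 to 280 CPM in the LPS + Reg3g library. F13a1 went the other way, from 319 to 163, 159 to 45.9 and 214 to 82.5 CPM. Median depth rose over the same steps, from 4348 to 7796 UMIs, 4004 to 6222 and 5010 to 6580. Saa3, an acute phase protein, stayed within 8036 to 9492 CPM across these steps with LPS and 7300 to 9307 with LPS + Reg3g.

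Transcripts outside the rule placed the intermediate monocytes between the gates. With PBS 866 genes differed at least 2-fold between the nonclassical and the classical gate, and intermediate monocytes were between the gates for 796 of them (91.9%). With LPS it was 226 of 240 genes (94.2%), and with LPS + Reg3g 370 of 376 (98.4%). On a log scale that runs from 0 at the nonclassical to 1 at the classical gate, the median gene stood at 0.60, 0.46 and 0.41. Cells were grouped on genes that partly move together with these, so the counts are a description with no test. A mix of cells of both gates, or doublets of them, would give levels between the gates too. The part of either in these values was not tested. Fewer genes separated the gates in both LPS libraries than with PBS. Without other-lineage cells, intermediate monocytes were between the gates for 95.7%, 95.8% and 98.1% of the genes that differed.

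Genes of nonclassical monocytes outside the rule were taken from a list of 22. Of these 16 with PBS, 15 with LPS and 17 with LPS + Reg3g were at least 2-fold higher in the nonclassical than in the classical gate, and intermediate monocytes lay between the gates for 16, 14 and 17 of those. Nr4a1, the nuclear receptor that nonclassical monocytes need, was at 703 CPM in PBS intermediate monocytes, between 1170 in the nonclassical and 483 in the classical gate. Eno3, a muscle-type enolase chosen after its values were seen, spanned the widest range of the list with PBS, at 296 CPM in the nonclassical gate, 96.6 in intermediate monocytes and 2.42 in the classical gate. Fcgr4, an activating receptor for IgG, was at 140 CPM with PBS against 479 and 36.8, and at 225 with LPS against 390 and 132. The exception with LPS was the integrin Itgax, named for that reason, at 41.8 CPM in intermediate monocytes, 90.6 in the nonclassical and 43.7 in the classical gate.

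Of 20 classical genes outside the rule, 16, 9 and 10 were at least 2-fold higher in the classical gate, and intermediate monocytes lay between the gates for all of those. Over all 20 genes they lay between for 18, 17 and 17. With PBS Ly6a differed the other way, at 53.4 CPM in the nonclassical gate, 18.7 in intermediate monocytes and 12.4 in the classical gate. F13a1 was at 248 CPM with PBS, between 19.8 in the nonclassical and 685 in the classical gate. Fn1, fibronectin, was at 670 CPM between 66.6 and 1448. Plac8, a small cysteine-rich protein also chosen after its values were seen, was at 5266 CPM with PBS between 2959 and 6444, but at 4540 with LPS and 5322 with LPS + Reg3g it was above both gates, which held 4201 and 3463 CPM and 4693 and 4107 CPM. S100a4, also named after its values were seen, was above both gates in both LPS libraries too. It was at 1039 CPM with LPS against 809 and 894, and at 933 with LPS + Reg3g against 755 and 750. The medians on the 0 to 1 scale were 0.42, 0.44 and 0.35 for the nonclassical genes and 0.70, 0.55 and 0.47 for the classical genes.

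**Figure D2:**
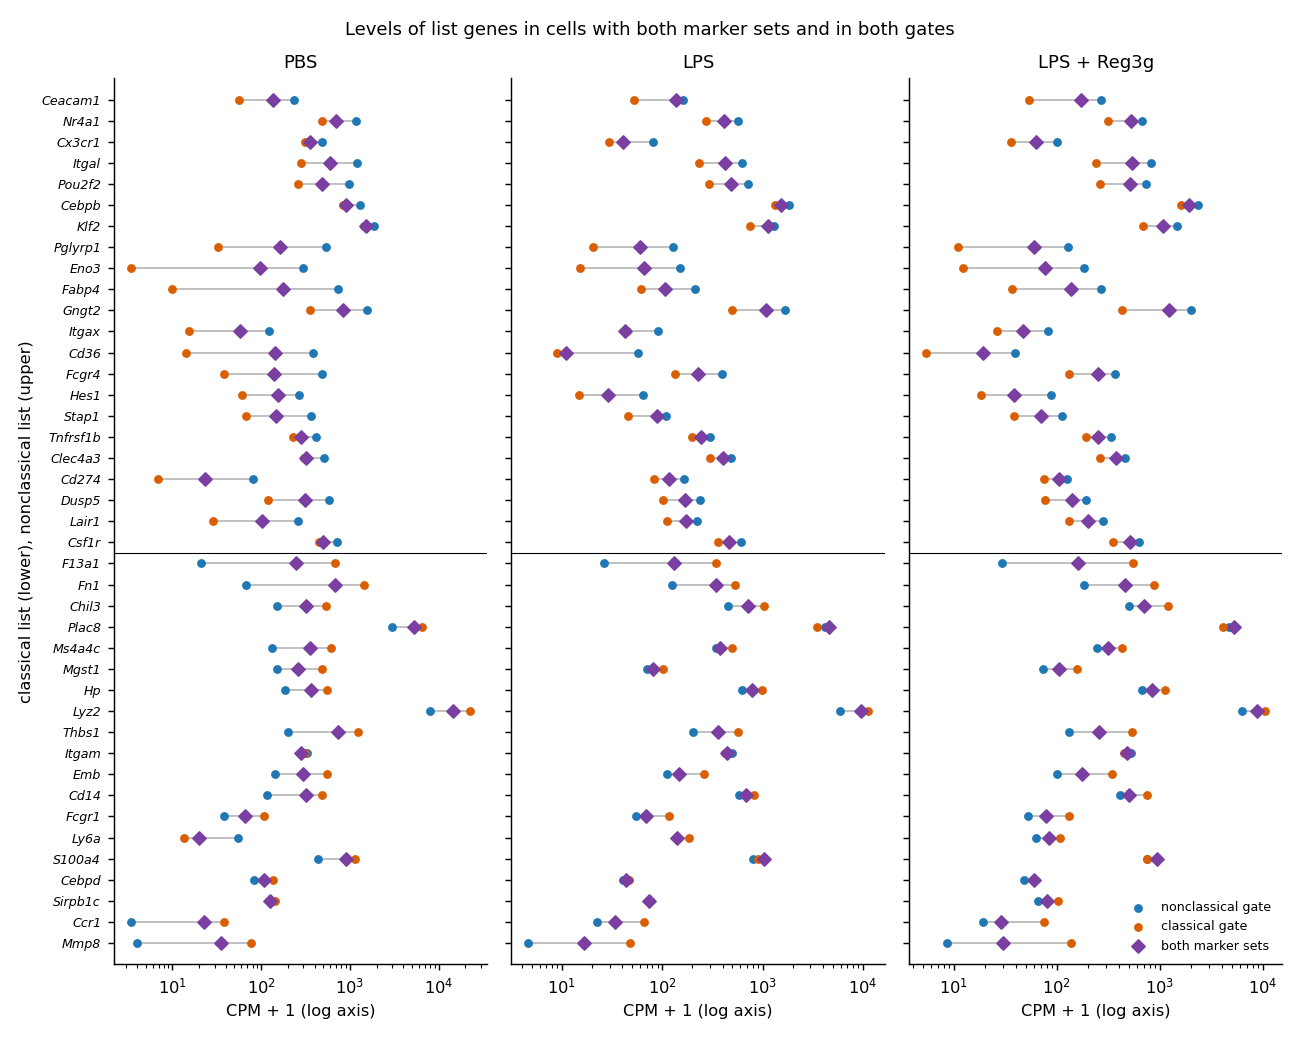
Each row is a gene of the nonclassical list (upper block) or the classical list (lower block, 1 gene not drawn), outside the selection rule, and the log axis gives its level as CPM + 1 in the nonclassical gate, the classical gate and the intermediate monocytes (diamonds) of 1 library per panel. Diamonds lie on the grey line that joins the gates for most genes, as for F13a1 with PBS at 248 CPM between 19.8 and 685.

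Within single cells the same lists were counted at 2000 UMIs per cell. Intermediate monocytes showed a mean of 8.62 ± 3.02 of the nonclassical genes with PBS, 7.71 ± 2.56 with LPS and 8.07 ± 2.48 with LPS + Reg3g (mean ± SD over 473, 1295 and 1084 cells). The nonclassical gate showed 12.47, 8.66 and 9.46 and the classical gate 5.72, 5.52 and 5.42. Of the classical genes intermediate monocytes showed 7.82 ± 2.88, 7.53 ± 1.96 and 7.47 ± 2.11 over the same cells, against 4.77, 6.60 and 6.16 in the nonclassical and 9.87, 8.49 and 9.05 in the classical gate. Thinning left out 242, 333 and 282 shallower cells of the nonclassical gate and 19, 72 and 23 intermediate monocytes.

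Few single PBS cells reached the usual level of both programs at once. At least the nonclassical gate's median of nonclassical genes and at least the classical gate's median of classical genes were found together in 12 of 473 intermediate monocytes with PBS (2.54%, 1.32% to 4.39%), 214 of 1295 with LPS (16.5%, 14.5% to 18.7%) and 125 of 1084 with LPS + Reg3g (11.5%, 9.69% to 13.6%). The shares were 0.259%, 14.4% and 4.45% in the nonclassical gate, 0%, 6.19% and 3.17% in the classical gate and 0%, 0.276% and 0.0451% in alveolar macrophages. The medians to reach were 13 and 10 genes with PBS, but 9 and 8 with LPS and 9 and 9 with LPS + Reg3g, so the bar was lower after LPS. Without other-lineage cells the shares in intermediate monocytes were 2.77%, 16.2% and 11.5%.

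Subtracting the classical from the nonclassical count gave medians of 1.00, 0 and 1.00 in intermediate monocytes, against 8, 2 and 3 in the nonclassical gate and -4, -3 and -4 in the classical gate. With PBS 78.4% of intermediate monocytes lay between the medians of the gates, 16.5% at or under the classical median and 5.07% at or over the nonclassical median. With LPS the shares were 45.9%, 20.4% and 33.7%, and with LPS + Reg3g 59.9%, 11.1% and 29.1%. A difference near 0 does not by itself mark an intermediate monocyte, because 97.9% of PBS alveolar macrophages, which had few genes of either list, also lay between.

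**Figure D3:**
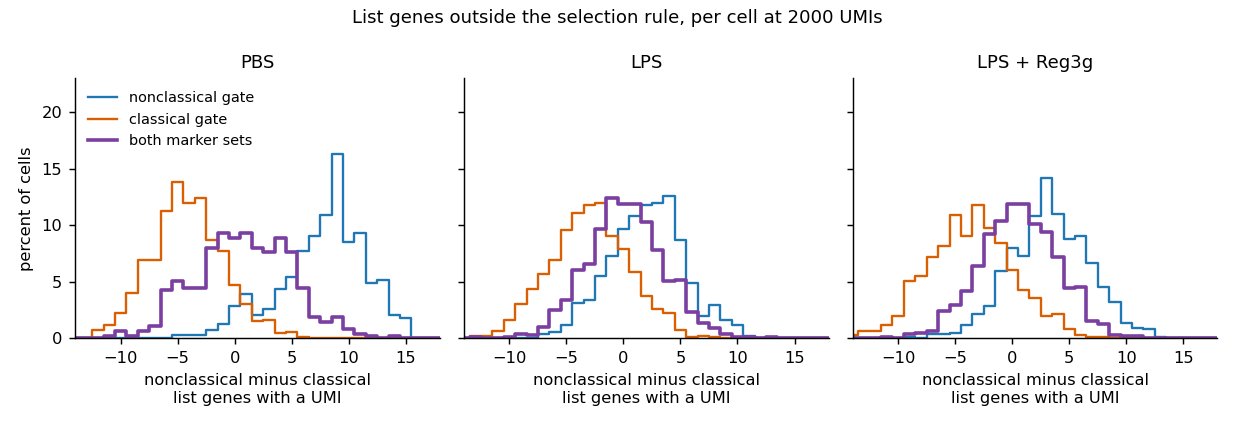
Steps give the percent of cells (vertical axis) by the number of nonclassical minus the number of classical list genes with a UMI (horizontal axis) after thinning to 2000 UMIs, for the intermediate monocytes (both marker sets) and both gates of each library. The intermediate monocytes centre near 0, with medians of 1.00, 0 and 1.00, between the gates.

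The cells nearest to each intermediate monocyte were found on 30 principal components of 2000 variable genes, without the genes of the rule and of other lineages. Of the 15 nearest cells, intermediate monocytes were 42.8% in the PBS, 42.7% in the LPS and 43.7% in the LPS + Reg3g library. They made up 6.05%, 9.85% and 11.4% of all kept cells, but 24.1%, 29.7% and 33.8% of the 3 monocyte groups together. Classical gate cells were 28.3%, 32.2% and 19.1% of the neighbours and nonclassical gate cells 12.1%, 11.3% and 25.2%. More classical than nonclassical neighbours were found for 55.1% of intermediate monocytes with PBS, 70.4% with LPS and 38.7% with LPS + Reg3g. More nonclassical neighbours were found for 27.8%, 21.1% and 55.6%. The gates themselves differed in size between libraries, with 2400 classical and 840 nonclassical cells with LPS but 1013 and 1158 with LPS + Reg3g, and the side of the neighbours moved with those sizes. At least 3 neighbours from each gate were found for 2.24%, 10.9% and 11.2% of intermediate monocytes, against 1.91%, 16.3% and 5.96% of nonclassical and 0.543%, 5.25% and 7.90% of classical gate cells. With LPS such mixed neighbourhoods were thus more common in the nonclassical gate. With PBS the gates kept more to themselves than intermediate monocytes did. Cells of the same gate were 70.3% of the neighbours of nonclassical and 73.2% of those of classical gate cells. With LPS + Reg3g these shares were 50.3% and 52.6%, also above that of intermediate monocytes. With LPS only the classical gate was above them, and the nonclassical gate was below at 33.2%. Nonclassical gate cells had 11.9%, 25.2% and 26.9% intermediate monocytes among their own neighbours. At 2000 UMIs per cell the share was 34.9%, 38.5% and 40.5% around intermediate monocytes and 18.8%, 38.9% and 34.3% around nonclassical gate cells, so with LPS it was no higher around the former.

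Some genes were outside the range of both gates. Of 5934 genes compared with PBS, 47 were 2-fold or more above both gates (0.792%) and 6 below both (0.101%). In the LPS library it was 3 and 2 of 5748 (0.0522% and 0.0348%), and in the LPS + Reg3g library 1 and 1 of 5845 (0.0171% each). The 5 genes furthest above both with PBS were Ccl22 and Ccl17, chemokines of mature dendritic cells, at 71.4 and 120 CPM, Xcr1, the chemokine receptor of type 1 dendritic cells, at 54.3 CPM, Ccr7, the receptor for migration to lymph nodes, at 42.2 CPM, and the integrin Itgae at 29.1 CPM. In both gates all 5 were far under 20 CPM. The gates exclude cells with 2 or more summed UMIs of genes such as Xcr1 and Ccr7, and when such cells were also left out of the intermediate monocytes, 4 genes were above both gates with PBS. These were Retnla (652 CPM against 6.60 and 112), Lyz1 (110 against 22.8 and 50.5), Fcrls and Spp1, and they are named after their values were seen. Among all 492 PBS intermediate monocytes 17 had a Retnla UMI and 56 a Lyz1 UMI. A single cell held 47.0% of the Retnla UMIs, and a single cell held 33.3% of the Lyz1 UMIs. The 5 furthest below both with PBS were Marco, Aqp1, Timp3, Cxcl13 and Cldn5, all at 1.64 CPM or less in intermediate monocytes, against 34.8 to 81.0 CPM in the nonclassical and 4.03 CPM or less in the classical gate. Cldn5, a tight junction gene of endothelium, was thus highest in the nonclassical gate.

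With LPS against PBS the 3 genes furthest higher in intermediate monocytes were Saa3, Lcn2 and Acod1, and the 3 furthest lower were Retnla, Xcr1 and Lyz1. Xcr1 turned direction without other-lineage cells, but it is among the 17 genes that define those cells, so its fall in PBS was built in. With PBS 1 cell held 47.0% of the Retnla UMIs and 1 held 33.3% of the Lyz1 UMIs. The median log2 ratio was 1.41 over the 28 measured NF-kB and LPS-inducible genes and -2.11 over the 11 of MHC class II presentation. Of 5866 genes with at least 20 CPM in either library, 482 (8.22%) passed 2-fold upward and 444 (7.57%) downward. The log2 ratio of the median gene was 0.04. The nonclassical gate had 575 higher and 491 lower genes, and the classical gate 628 and 522.

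The widest gap was that of Saa3, which encodes serum amyloid A3. It stood at 5.89 CPM with PBS, 9333 with LPS and 8840 with LPS + Reg3g, a log2 ratio of LPS to PBS of 10.63 (9.97 to 11.38). A Saa3 UMI was found in 96.1% of LPS and 1.02% of PBS intermediate monocytes, and 61.1% of the PBS UMIs came from 1 cell. At 2000 UMIs per cell 92.6% of LPS intermediate monocytes and 42.4% of LPS alveolar macrophages had a Saa3 UMI, against 71.8% of the latter before thinning. With LPS, alveolar macrophages held 1031 CPM, type 1 dendritic cells 2866, 19 cells with B cell markers 5342 and 79 with neutrophil markers 7085. The level in intermediate monocytes was above each of these. The part of free RNA or doublets in it was not tested.

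Lcn2, a siderophore-binding protein, stood at 1.64, 536 and 403 CPM in PBS, LPS and LPS + Reg3g intermediate monocytes. It was higher still in alveolar macrophages, at 1527 CPM with LPS, and in the 79 LPS and 70 LPS + Reg3g cells with neutrophil markers, at 5085 and 7145 CPM. The part of their RNA in the level of intermediate monocytes was not tested. Acod1, which makes itaconate, stood at 1.31, 319 and 291 CPM, a log2 ratio of 7.93 (6.57 to 9.81) for LPS against PBS, and at 193 CPM in LPS alveolar macrophages. Each of these genes was near 0 with PBS and high in both libraries that received LPS.

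The other genes among the 10 furthest higher were Upp1, Mmp14, Cd38, Il1a, Fpr1, Nr1h3 and Sdc4, with log2 ratios from 4.12 to 6.70. Mmp14, a membrane-bound metalloproteinase, stood at 2.95, 127 and 143 CPM. Fpr1, a receptor for bacterial formyl peptides, stood at 3.60, 90.5 and 70.4 CPM. Nr1h3, the sterol receptor LXR alpha, stood at 11.5, 217 and 180 CPM. All 10 were also at least 2-fold higher in both gates, by log2 ratios from 3.32 to 11.78. Marco, Cxcl3, Wfdc21, S100a8 and S100a9 were as far apart but were set aside, because their level was under 10% of that in another cell type of the same library.

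The NF-kB and LPS-inducible list, which responds to Toll-like receptor signalling, had 19 of 28 measured genes at least 2-fold higher and 0 lower, with a median log2 ratio of 1.41. In the nonclassical gate it was 19 of 27 with a median of 1.37, and in the classical gate 23 of 28 with 1.75. Without other-lineage cells it was 22 of 28 in intermediate monocytes, with a median of 1.60. Sod2, mitochondrial superoxide dismutase, stood at 114, 786 and 743 CPM, and Ptges, a prostaglandin E synthase, at 1.96, 28.5 and 27.5 CPM. Nfkb1, a subunit of the factor itself, did not pass 2-fold, at 217, 134 and 161 CPM. Of the genes that sense LPS, Irak3, a brake on the pathway, was higher at 31.1, 116 and 126 CPM, and the co-receptor Cd14 at 316, 685 and 506 CPM, and the 11 measured genes of that list had a median of -0.15.

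Cytokines such as Il1b were higher. Of 11 measured genes 6 passed 2-fold upward and 1 downward, with a median of 1.37, and without other-lineage cells 7 and 0, with 1.93. When thinned it was 7 and 2 of 12, with 1.13, and at a floor of 10 CPM 7 and 3 of 15, with 0.58. Il1b stood at 699 CPM with PBS, 2782 with LPS and 1971 with LPS + Reg3g, a log2 ratio of 1.99 (1.93 to 2.06) for LPS against PBS. Il1rn, the antagonist of the interleukin 1 receptor, stood at 16.7, 170 and 142 CPM, and Il6 at 0.982, 25.3 and 26.7 CPM. Il15, a survival factor for NK cells, was the gene that was lower, at 20.3, 5.40 and 5.08 CPM.

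Chemokines split. Of 15 measured genes 5 passed 2-fold upward and 3 downward. The neutrophil attractant Cxcl2 stood at 319, 3848 and 3032 CPM. Its UMIs were found in 81.1% of LPS intermediate monocytes at 2000 UMIs and 87.1% before thinning. In LPS alveolar macrophages the shares were 93.4% and 97.3%, and a part of free RNA in the level was not tested. Ccl5, an attractant of T cells, stood at 184, 685 and 378 CPM, and without other-lineage cells at 11.9, 600 and 346 CPM, so its log2 ratio for LPS against PBS went from 1.89 to 5.66. Ccl22 and Ccl17 were lower with LPS by log2 ratios of -1.80 and -1.37, but without other-lineage cells their ratios were 0.32 and 1.95. Ccl22 was then at only 3.07 CPM with PBS and 3.82 CPM with LPS. Without those cells 7 of 14 measured chemokines were higher and 1 lower, with a median of 1.28 in place of 0.29. Ccl2, the ligand of Ccr2, was lower at 147, 62.8 and 76.4 CPM, and stayed lower without the cells of other lineages at a log2 ratio of -1.51.

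MHC class II genes were lower with LPS. Of 11 measured genes of antigen presentation 9 were at least 2-fold lower and 0 higher, with a median of -2.11, against -1.17 in the nonclassical and -1.24 in the classical gate. H2-Aa, the alpha chain of I-A, stood at 2580, 268 and 240 CPM, and Cd74, the invariant chain, at 4448, 599 and 518 CPM. Ciita, the factor that switches these genes on, stood at 47.8, 3.55 and 2.86 CPM. These genes are also high in dendritic cells, and type 1 dendritic cells of the PBS library held 10191 CPM of H2-Aa. Without the cells of other lineages H2-Aa stood at 1402, 198 and 188 CPM, and 7 of 10 measured genes were lower with a median of -1.88. What further part dendritic RNA has in the PBS level was not tested.

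Interferon-stimulated genes moved less. Of 26 measured genes of the type I list 6 were at least 2-fold higher and 0 lower, with a median of 0.29, against 11 of 25 higher in the nonclassical gate (median 0.70) and 3 higher and 6 lower of 28 in the classical gate (median -0.49). The median was 0.05 without other-lineage cells and turned to -0.13 when cells were thinned. Slfn4 stood at 7.86, 88.4 and 65.6 CPM, a log2 ratio of 3.49 (2.90 to 4.15) for LPS against PBS. Oasl1 stood at 12.8, 48.1 and 47.0 CPM, with a ratio of 1.91 (1.43 to 2.43). Isg15, a ubiquitin-like protein, stood at 73.7, 222 and 194 CPM, with a ratio of 1.59 (1.39 to 1.80). Mx1, another gene of the list, was at 43.5, 23.8 and 34.0 CPM and did not pass 2-fold.

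The promoters of the 3 list genes with the largest ratio are shown because interferon-responsive promoters often hold a known element, with the core GAAANNGAA. Each runs from 250 bases before to 50 bases after the start of the gene in RefSeq on GRCm38.p6, written 5′ to 3′ on the strand of the gene, with the core on either strand in capitals. Slfn4 lies at chr11:83174936-83175235 on the plus strand, Oasl1 at chr5:114922990-114923289 on the plus strand and Isg15 at chr4:156200769-156201068 on the minus strand.
Slfn4: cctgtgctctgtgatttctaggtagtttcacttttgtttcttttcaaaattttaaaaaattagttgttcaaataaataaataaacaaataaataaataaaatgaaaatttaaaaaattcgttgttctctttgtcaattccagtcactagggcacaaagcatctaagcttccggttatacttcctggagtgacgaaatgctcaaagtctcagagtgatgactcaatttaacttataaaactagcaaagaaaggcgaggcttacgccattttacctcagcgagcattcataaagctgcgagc
Oasl1: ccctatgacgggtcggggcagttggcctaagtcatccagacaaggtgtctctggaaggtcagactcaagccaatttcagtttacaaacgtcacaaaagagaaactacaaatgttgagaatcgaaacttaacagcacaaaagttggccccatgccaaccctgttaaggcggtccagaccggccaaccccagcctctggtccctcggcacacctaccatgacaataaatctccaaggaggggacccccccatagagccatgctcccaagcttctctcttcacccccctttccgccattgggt
Isg15: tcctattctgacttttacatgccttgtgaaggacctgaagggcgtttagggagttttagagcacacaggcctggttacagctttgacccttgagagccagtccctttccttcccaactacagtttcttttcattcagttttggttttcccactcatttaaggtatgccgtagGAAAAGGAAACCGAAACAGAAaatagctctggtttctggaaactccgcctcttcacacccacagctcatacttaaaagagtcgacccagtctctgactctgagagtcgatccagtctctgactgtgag
The Isg15 promoter held 3 overlapping copies of the core, and the Slfn4 and Oasl1 windows held 0 in these letters. RefSeq promoters matched 24 of the 30 genes of the list, and 11 of the 24 held the core (45.8%), against 8.56% of the 32851 promoters in the table. Among list genes measured in intermediate monocytes, 2 of 6 that were 2-fold higher with LPS and 7 of 15 that were not held it. The presence of the core therefore did not separate the genes that passed 2-fold from those that did not, and a match describes letters, not binding.

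Interferon gamma targets were few at this depth, with 7 of 18 listed genes measured, 2 of them higher. Cxcl10, a ligand of the T cell receptor Cxcr3, stood at 24.9, 241 and 377 CPM. The Cxcl10 level was lower in PBS than in both LPS libraries, and 47.4% of its PBS UMIs came from 1 cell.

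Receptors for chemoattractants and adhesion moved both ways, with 6 of 21 measured genes at least 2-fold higher and 5 lower. Cx3cr1, the fractalkine receptor that marks patrolling monocytes, stood at 353, 39.9 and 62.1 CPM, a log2 ratio of -3.14 (-3.34 to -2.95) for LPS against PBS. It was lower in the nonclassical gate too, at 479, 79.3 and 101 CPM, and in the classical gate, at 314, 28.5 and 35.2 CPM. Cxcr4, which holds leukocytes in the bone marrow, was also lower, at 373, 57.4 and 44.0 CPM. Higher genes included Fpr2 at 11.1, 107 and 114 CPM, Pecam1 at 16.4, 81.4 and 90.9 CPM and Icam1 at 68.1, 180 and 164 CPM.

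Among the 22 nonclassical genes outside the rule 1 was higher and 4 were lower, with a median of -0.45, and among the 20 classical genes 4 were higher and 6 lower, with a median of -0.42. Cd274, the checkpoint ligand PD-L1, was the nonclassical gene that was higher, at 22.3, 116 and 105 CPM. Cd36, a scavenger receptor for lipids, was lower at 144, 10.0 and 18.1 CPM, Hes1, a Notch target, at 154, 27.8 and 37.3 CPM, and Pglyrp1 at 162, 59.2 and 59.1 CPM. Of the classical list, Ly6a was higher at 18.7, 138 and 83.2 CPM, though with PBS it was higher in the nonclassical than in the classical gate. Chil3 was higher at 322, 714 and 703 CPM and Hp, haptoglobin, at 359, 778 and 841 CPM. Without other-lineage cells 1 classical gene was higher and 8 were lower, and Ly6a kept a log2 ratio of 2.78 while Chil3 and Hp went to 0.91 and 0.89, under 2-fold.

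Transcription factors were lower where they passed 2-fold, 7 of 19 measured and 0 higher, with a median of -0.47. Klf4, which monocytes need to develop, stood at 1154, 262 and 310 CPM. Irf8, a factor of monocytes and type 1 dendritic cells, stood at 631, 207 and 221 CPM, and at 384, 195 and 214 CPM without other-lineage cells, where its ratio of -0.98 was under 2-fold. Spi1, which encodes PU.1, stood at 780, 1477 and 1403 CPM, and Nr4a1 at 703, 411 and 525 CPM, and neither passed 2-fold. Genes that respond to tissue dissociation were lower too, 6 of 16 measured and 0 higher, with a median of -0.91. The heat shock gene Hspa1b stood at 681, 63.9 and 119 CPM and Fosb at 699, 125 and 150 CPM, and in both gates these genes were lower in the same direction. Hspa1a and Hspa1b are close copies, so counts for either are uncertain. The part of handling in these levels was not tested.

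Genes of uptake and complement had 11 of 22 measured genes at least 2-fold higher and 4 lower, with a median of 0.94. C1qb, a chain of complement C1q, stood at 90.7, 821 and 833 CPM and C5ar1, the receptor for C5a, at 31.4, 169 and 157 CPM. Clec7a, the beta-glucan receptor dectin-1, was lower at 364, 83.7 and 69.4 CPM. The interstitial macrophage list, which holds the C1q genes, summed to 336, 1560 and 1614 CPM in intermediate monocytes and to 229, 2123 and 2145 CPM in the classical gate.

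Genes of macrophage differentiation had 5 of 15 measured higher and 3 lower. Arg1, arginase, had 0 UMIs with PBS and 43.8 CPM with LPS, a log2 ratio of at least 5.48 against a floor of 3 counts. Retnla, a secreted product of alternatively activated macrophages, had the widest gap downward, at 488, 0.925 and 7.31 CPM. Only 17 of 492 PBS intermediate monocytes had a Retnla UMI, and 1 of them held 47.0% of its UMIs, so that ratio of -9.04 describes few cells. Apoe, a lipid carrier, was lower at 2641, 794 and 881 CPM. Hpgd, which degrades prostaglandins, was lower at 195, 16.7 and 22.1 CPM, with a UMI in 48.4%, 5.71% and 7.41% of the cells, and was thus spread over many of them. The remaining genes among the 10 furthest lower were Xcr1, Lyz1, Flt1 and Dgkg. Xcr1, at 54.3, 2.31 and 2.07 CPM, turned to a ratio of 1.18 without other-lineage cells, on levels under 1 CPM. Xcr1 itself is among the genes that define those cells, so the removal fixed its low level.

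Survival genes had 4 of 21 measured higher and 1 lower, with a median of 0.35. Bcl2a1b, a relative of Bcl2 that NF-kB induces, stood at 160, 674 and 668 CPM, though its near-identical copies Bcl2a1a and Bcl2a1d make the split between them uncertain. Bax, which promotes cell death, was also higher at 242, 616 and 512 CPM. Bid, which links death receptors to mitochondria, was the gene that was lower, at 25.2, 7.56 and 8.58 CPM. Of 8 measured coagulation genes 3 were higher and 3 lower. F10, coagulation factor X, stood at 108, 287 and 327 CPM, F5 at 21.9, 1.54 and 1.75 CPM and the anticoagulant Thbd, thrombomodulin, at 86.7, 25.6 and 27.5 CPM.

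**Figure D4:**
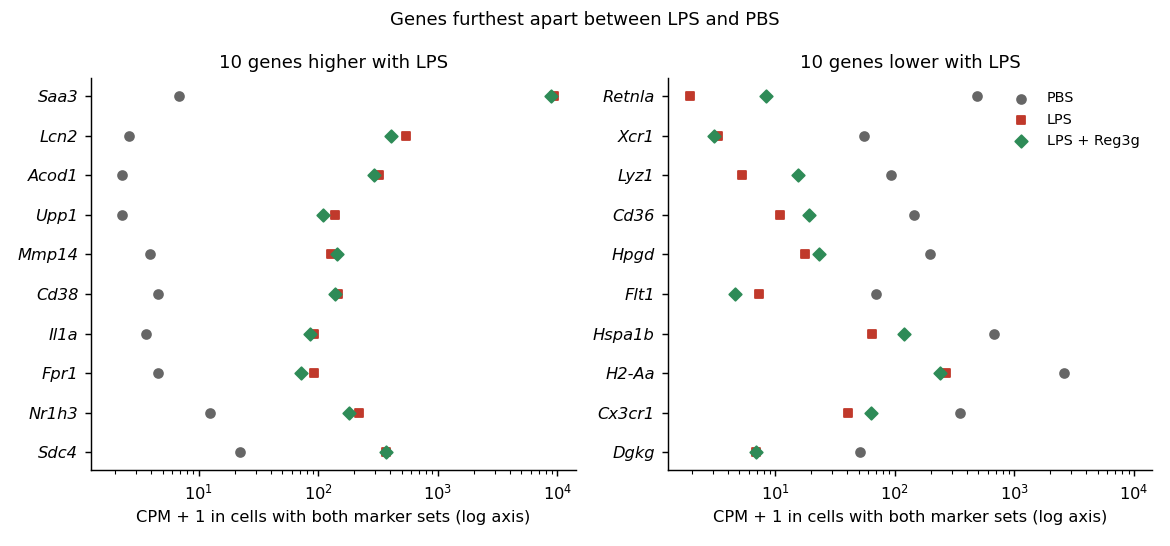
Points give the level (CPM + 1, log axis) in the intermediate monocytes of each library for the 10 genes furthest higher (left) and furthest lower (right) with LPS against PBS. For most genes the LPS and LPS + Reg3g points lie close to each other compared with PBS, as for Saa3 at 9333 and 8840 against 5.89 CPM. For Retnla and Lyz1 they lie further apart.

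Few genes passed 2-fold between LPS + Reg3g and LPS in intermediate monocytes. Of 5588 genes, 5 were higher (0.0895%) and 9 lower (0.161%), and the median gene had a log2 ratio of 0.03. Without other-lineage cells 8 were higher and 6 lower, and without the highest Scrublet scores 5 and 5. When thinned 115 were higher and 106 lower, and at a floor of 50 CPM 1 and 1. The LPS library serves as the reference here and as the treated library in the contrast with PBS, so the pair of contrasts shares its counting error. In the nonclassical gate 11 and 18 genes passed 2-fold, and in the classical gate 13 and 10. No gene passed 2-fold in 16 of the 17 gene lists. The exception was the chemokine list with 1 higher and 2 lower.

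The 5 genes that were higher are named after their values were seen. Lrg1, a secreted leucine-rich glycoprotein, stood at 9.87 CPM in the LPS and 30.8 CPM in the LPS + Reg3g library, a log2 ratio of 1.64 (1.23 to 2.07), and a UMI was found in 2.71% and 9.39% of intermediate monocytes. In the classical gate Lrg1 stood at 12.6 and 67.8 CPM and in the nonclassical gate at 3.17 and 6.50 CPM. Igfbp6, a binding protein of insulin-like growth factors, stood at 18.7 and 43.2 CPM, with a UMI in 7.97% and 17.6% of the cells. Gcnt1, a glycosyltransferase, stood at 10.5 and 22.1 CPM. Scgb1a1, a product of airway club cells, stood at 23.6 and 57.4 CPM, but 1 cell held 55.6% of its UMIs with LPS and 1 held 82.8% with LPS + Reg3g. Pf4, platelet factor 4, stood at 12.3 and 27.0 CPM, with 23.8% and 21.2% of its UMIs in 1 cell.

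Of the 9 lower genes, Ly6i had the highest level, at 180 CPM with LPS and 76.1 with LPS + Reg3g, a log2 ratio of -1.25 (-1.40 to -1.09). PBS intermediate monocytes held 79.9 CPM, near the LPS + Reg3g level, but the gates differed in this. In the nonclassical gate Ly6i was at 184 CPM with PBS, 205 with LPS and 129 with LPS + Reg3g, the last under PBS. In the classical gate it was at 27.4, 177 and 69.5 CPM, with LPS + Reg3g still more than 2-fold above PBS. Ccl22, Ccl17, Ccr7 and Fscn1, genes of mature dendritic cells, were lower by log2 ratios of -2.69, -1.84, -2.02 and -2.49, and without other-lineage cells by -1.94, -1.24, -1.81 and -1.24. Without those cells Ccl22, Ccr7 and Fscn1 were at 6.65 CPM or less in both libraries, under the floor of 20 CPM. Ccr7 is also among the genes that define those cells, so its level without them was limited by the removal. The Ccl22 ratio was -0.78 without the highest Scrublet scores and turned to 0.67 when cells were thinned. Single cells weighed on these genes. In the LPS library 26 cells had a Ccl22 UMI, and 1 of them held 48.1% of the Ccl22 UMIs. The highest LPS cell held 15.9% of the Ccr7, 15.3% of the Fscn1 and 9.57% of the Ccl17 UMIs. In the LPS + Reg3g library 1 cell held 51.2% of the Fscn1 UMIs. H2-Q6, Smim40, Mgp and Gm37033 were the others, and these 4, Ccr7 and Fscn1 are named after their values were seen. Mgp, a matrix protein, went from a ratio of -2.39 to -0.81 without other-lineage cells, and 1 cell held 66.9% of its LPS UMIs. H2-Q6 stood at 37.5 and 17.5 CPM and H2-Q7 at 189 and 103 CPM, but such nonclassical MHC class I genes have close copies and their split is uncertain.

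Under 2-fold, Tnf stood at 76.8 CPM in the LPS and 130 CPM in the LPS + Reg3g library, a log2 ratio of 0.76 (0.60 to 0.92), against 20.3 with PBS. Cxcl10 stood at 241 and 377 CPM, a ratio of 0.65 (0.55 to 0.74). Il1b stood at 2782 and 1971 CPM, a ratio of -0.50 (-0.53 to -0.46), and Ccl5 at 685 and 378 CPM, a ratio of -0.86 (-0.93 to -0.78). None of these 4 passed 2-fold. Of the 9 measured genes of the cytokine list 0 passed it in either direction, and their median was -0.13. The other genes among the 10 furthest higher were Cxcl13, Hspa1b, H1f2, H1f4, Rab21, Cx3cr1 and Pnisr, with ratios of 0.60 to 0.95. Cxcl13 had 47.3% of its LPS and 67.7% of its LPS + Reg3g UMIs in 1 cell. The 10 furthest lower also held Bcl2l11, Rab11fip1, Ly6a, Basp1, Cd63 and Slc35b2, with ratios of -0.79 to -0.64.

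Genes of the Reg3g pathway were at low or moderate levels. Reg3g itself had 1 UMI with PBS, 3 with LPS and 3 with LPS + Reg3g in intermediate monocytes, so transcription of the gene was at the floor and the added protein leaves no count. Extl3, a reported receptor of Reg3 proteins, stood at 24.9, 18 and 20.8 CPM. Socs3, a feedback inhibitor of cytokine signalling, stood at 117, 314 and 418 CPM and was 2-fold higher with LPS against PBS, while its log2 ratio of LPS + Reg3g to LPS was 0.41. Stat3, the factor upstream of it, stood at 268, 191 and 188 CPM.

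**Figure D5:**
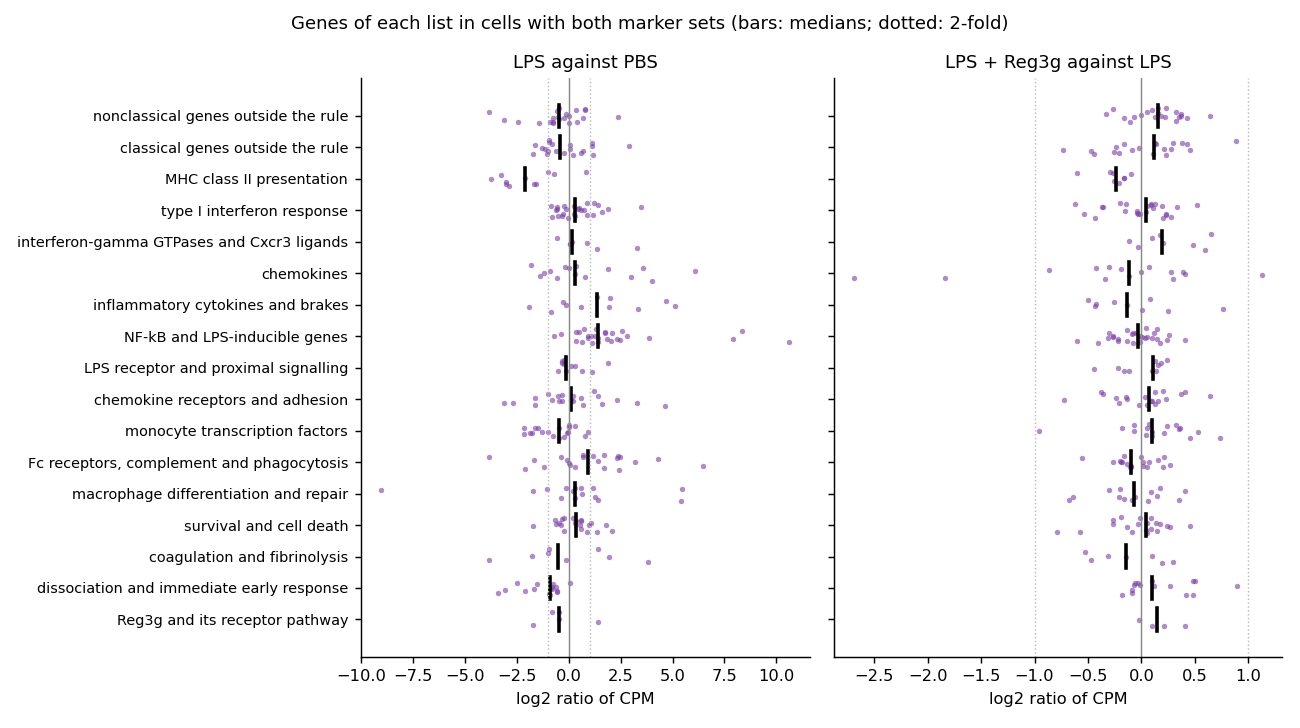
Each point is a measured gene of the list on its row, placed by its log2 ratio of CPM in intermediate monocytes for LPS against PBS (left) and LPS + Reg3g against LPS (right), and bars mark medians. The horizontal scales differ: on the left the NF-kB median is at 1.41 and the MHC class II median at -2.11, and on the right 3 points, all chemokines, lie past the dotted 2-fold lines.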

How the data were processed

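The 10x Genomics 3′ libraries of sorted lung cells were processed by the authors with bcl2fastq 5.0.1, Cell Ranger 9.0.1 and Seurat 4.4.0 on mm10, per the submitters' processing notes. The annotation was not given in the sources used here. The deposited matrices hold whole-number UMI counts per gene and barcode, not normalized, per the file headers. A barcode was kept if it had 500 or more genes, 1000 or more UMIs and no more than 15% mitochondrial UMIs. Counts were summed over the cells of a gate by gene symbol and scaled to CPM. A gene entered a contrast at 20 CPM in either library, outside the rule, and was called at 2-fold. A count of 0 was set to 3. Intervals are exact (Clopper-Pearson, Poisson, conditional binomial). Scrublet scores came from Scanpy 1.11.5, and neighbours from scikit-learn 1.9.0. Promoter coordinates are those of RefSeq on GRCm38.p6.

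Named genes were the 10 highest and 10 lowest ratios of each contrast at 50 CPM and 20 UMIs or more in the higher library, the 5 furthest above and below both gates with PBS, and up to 5 per list and direction; genes of the rule, ribosomal, mitochondrial, haemoglobin, immunoglobulin and predicted genes, and genes under 10% of their level in another cell type, were left out. The members, lists and rules were chosen with earlier results of these data known. Ratio and position code was tested on simulated data. Alternatives covered doublets, filters, thresholds, depth, scaling, weighting and floors. Some items are not reported here.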

Additional observations from a re-analysis of the deposited data

Results flagged for a closer look

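Ccl22 and Ccl17 moved in opposite directions in intermediate monocytes and in both gates for LPS against PBS, a difference that was not tested. The log2 ratio of Ccl22 was -1.80 in intermediate monocytes, 2.84 in the nonclassical gate and 1.92 in the classical gate. That of Ccl17 was -1.37, against 3.66 and 3.79. The gates leave out cells with UMIs of other lineages. Without such cells the ratios in intermediate monocytes were 0.32 for Ccl22 and 1.95 for Ccl17, and migratory dendritic markers in the PBS cells summed to 7.03 CPM in place of 196. Ccr7 is among these markers and also among the genes that define such cells.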

How the results depend on the processing

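Of 34 list medians under 12 alternatives, 384 values stayed within 0.25 of the reported one, 23 moved further, and 1 median of 0.25 or more in size changed sign. Of the ratios for 300 pairs of a named gene and a contrast, 3105 values stayed inside the counting interval of the reported one, 486 moved outside it, and 9 that had passed 2-fold changed sign. The cause of these changes was not tested. The shares of intermediate monocytes with PBS, LPS and LPS + Reg3g were 2.08%, 4.17% and 3.54% at 2000 UMIs, 2.72%, 3.58% and 4.64% with stricter markers and 24.1%, 29.7% and 33.8% of the monocyte gates. With a Ly6c2 UMI required they were 4.81% with PBS and 10.3% with LPS + Reg3g, with a stricter cell filter 11% with LPS and 12.4% with LPS + Reg3g, and without other-lineage cells 5.12% with PBS and 9.34% with LPS. Leaving out other-lineage cells and the highest Scrublet scores together, chosen after seeing the data, gave 5.28% with PBS.

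For LPS against PBS, genes at least 2-fold higher numbered 761 when thinned and 301 at a floor of 50 CPM, and lower genes 245 at 50 CPM. For LPS + Reg3g against LPS, higher genes numbered 115 when thinned, 20 with stricter markers, 8 without other-lineage cells, 9 at 10 CPM and 1 at 50 CPM. Lower genes numbered 106 when thinned, 5 without the highest Scrublet scores, 4 without these and other-lineage cells, 19 at 10 CPM and 1 at 50 CPM. Thinning leaves fewer cells and UMIs, so low genes vary more.

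PBS genes 2-fold above both gates numbered 27 at the doubled doublet removal, 30 with Ly6c2 required, and 4 without other-lineage cells, with or without the highest Scrublet scores. LPS genes above both numbered 1 without the highest scores and 0 at the doubled removal or without other-lineage cells. LPS + Reg3g genes above both numbered 4 with stricter markers, 2 with Ly6c2 required and 11 when thinned.

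Signs changed for LPS against PBS in Xcr1 (1.18), Ccl22 (0.32) and Ccl17 (1.95) without other-lineage cells, and were 0.64, 0.35 and 1.84 with the highest Scrublet scores also left out. Xcr1 is among the genes that define other-lineage cells, so its change was built into the removal. When thinned, the ratio of Ccl17 was 2.48 and the median of the type I interferon list -0.13, and for LPS + Reg3g against LPS Scgb1a1 was at -3.11 and Ccl22 at 0.67. Another scaling moved the median of all genes from 0.04 to -0.01 for LPS against PBS. Depth sets how often the rule is met, and with 1 library per group the spread between animals is unknown.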
